A study of Homo sapiens with 16 samples.

Results

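POU2F2 and 9 other transcription factors known from lymphocytes were followed in an acute myeloid leukaemia line exposed to retinoids, alone or with a pair of chromatin inhibitors. The 10 genes are POU2F1, POU2F2, POU2AF1, BCL6, BCL11A, IKZF1, IKZF2, IKZF3, TCF3 and TCF4, and each was found as a single row among 62700 genes by matching its Ensembl identifier to its symbol. POU2F2 was chosen by its measured values in these same libraries, where it was higher with retinoid and lower once the inhibitors were added. The other 9 were listed by name, with earlier results of these data known, to ask whether that rise and fall is particular to POU2F2. Its own values in those comparisons are therefore given as a description with no test. Of the 10 genes, 6 averaged 10 normalized counts or more across the libraries and were tested (POU2F1, POU2F2, BCL6, IKZF1, TCF3 and TCF4), beside 14643 genes in all. POU2AF1, BCL11A, IKZF2 and IKZF3 fell under that limit, and their values are given further on.

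OCI-AML3 is an established human myeloid leukaemia cell line, labelled as from peripheral blood. RNA-seq libraries came from 4 untreated samples and from 3 samples each of ATRA, of Am80 (AM80 in the labels), and of either retinoid together with GSK-LSD1 and MB3. ATRA, all-trans retinoic acid, activates every retinoic acid receptor, whereas Am80 (tamibarotene) is selective for RARA. GSK-LSD1 inhibits the histone demethylase LSD1, and MB3 inhibits the histone acetyltransferase GCN5. The study's methods give exposures of 3 h for RNA-seq, and doses in cell lines of 0.1 µM for either retinoid and for GSK-LSD1 and of 100 µM for MB3. No group received the inhibitors without a retinoid, so the change on adding them is measured only on top of ATRA or Am80, and the 2 inhibitors cannot be told apart. Nothing in the labels says that the repeats were separate cultures, so the p-values measure the spread between these samples, which may be technical.

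POU2F1 (Oct-1) and POU2F2 (Oct-2) are POU domain proteins that bind the same octamer sequence in DNA. POU2F1 is made in most cells, whereas POU2F2 is best known from B cells, where it works with the coactivator POU2AF1 (OCA-B). BCL6 and BCL11A are zinc finger repressors, of germinal centre B cells and of early lymphoid and erythroid cells. IKZF1, IKZF2 and IKZF3 (Ikaros, Helios and Aiolos) are related zinc finger factors of lymphocytes, and IKZF1 also acts in myeloid progenitors. TCF3 and TCF4 encode E proteins, basic helix-loop-helix factors that bind E-box sequences and are held back by the ID proteins. In bulk RNA, fewer cells with a transcript and less of it per cell cannot be told apart.

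The promoters of the octamer factors and of BCL6, the other member that rose with both retinoids, are shown to give the sequence context of the genes the results turn on. They are RefSeq sequences on GRCh38.p14, each running from 250 bases before to 50 bases after an annotated start site, on the strand of the gene. RefSeq promoters were found for 8 of the 10 genes (27 promoters), and POU2AF1 and IKZF3 had none in the table. Capitals mark a retinoid receptor half-site, which was searched in the form AGGTCA, in the form AGTTCA, in the form GGGTCA and in the form GGTTCA, the octamer ATGCAAAT, an E-box, searched as CAGGTG and in its other form as CAGCTG, or the Ikaros core TGGGAA, each read on both strands. POU2F2 has 1 promoter in the table, at chr19:42132397-42132696 on the minus strand. The BCL6 pair lies at chr3:187736452-187736751 and chr3:187745419-187745718 on the minus strand, and the POU2F1 promoter shown at chr1:167328820-167329119 on the plus strand. POU2F1 has 3 promoters in the table, and this one is shown because it holds an octamer. The other two, at chr1:167220635-167220934 and chr1:167220636-167220935, overlap almost wholly and hold none of the letters searched.
POU2F2: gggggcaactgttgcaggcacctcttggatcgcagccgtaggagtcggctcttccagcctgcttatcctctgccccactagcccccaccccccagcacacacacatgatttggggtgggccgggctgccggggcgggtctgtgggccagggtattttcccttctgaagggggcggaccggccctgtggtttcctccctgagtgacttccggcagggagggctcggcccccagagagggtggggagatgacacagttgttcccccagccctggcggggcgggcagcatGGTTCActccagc
BCL6, first: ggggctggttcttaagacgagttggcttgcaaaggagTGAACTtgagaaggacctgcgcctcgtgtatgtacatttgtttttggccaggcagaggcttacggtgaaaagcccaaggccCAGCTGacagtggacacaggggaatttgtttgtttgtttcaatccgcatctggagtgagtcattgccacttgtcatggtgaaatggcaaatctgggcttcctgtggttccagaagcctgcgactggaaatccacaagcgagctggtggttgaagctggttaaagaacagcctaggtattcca
BCL6, second: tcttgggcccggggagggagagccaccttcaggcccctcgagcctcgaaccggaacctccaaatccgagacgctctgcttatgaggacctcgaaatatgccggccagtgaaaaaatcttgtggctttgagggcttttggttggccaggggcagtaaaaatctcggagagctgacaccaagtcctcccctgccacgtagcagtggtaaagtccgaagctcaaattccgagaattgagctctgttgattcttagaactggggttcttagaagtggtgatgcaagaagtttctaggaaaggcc
POU2F1: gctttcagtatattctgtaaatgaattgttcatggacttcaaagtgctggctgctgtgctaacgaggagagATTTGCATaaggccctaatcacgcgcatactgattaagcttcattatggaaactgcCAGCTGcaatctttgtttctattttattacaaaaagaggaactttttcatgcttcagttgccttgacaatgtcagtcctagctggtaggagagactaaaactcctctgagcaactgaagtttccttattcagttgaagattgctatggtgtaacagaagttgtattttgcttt
The POU2F2 window held 1 half-site, GGTTCA, at bases 288 to 293, beyond the start site, and none of the other letters searched. The first BCL6 window held a half-site (AGTTCA on the opposite strand, bases 38 to 43) and 1 CAGCTG, which reads the same on both strands, and the second held no match. The POU2F1 window held the only octamer among the 27 member promoters, on the opposite strand at bases 72 to 79, and 1 CAGCTG. Half-sites were in 12 of the 27 (44.4%) against 38.6% of all 35116 promoters in the table, octamers in 1 (3.70%) against 1.77%, E-boxes in 3 (11.1%) against 34.5%, and Ikaros cores in 7 (25.9%) against 24.0%. Several of these windows belong to the same gene and some overlap, so the shares are a description, and a match is not a binding site.

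Libraries held 11963898 to 33789718 reads, the highest in Am80 replicate 2. Untreated replicate 4 stood apart from its group. Its mean distance to the other untreated libraries was 0.440 (root mean square log2 difference over the tested genes), against 0.358 to 0.371 for the other untreated libraries and 0.262 to 0.386 for libraries of the other groups. It was the lowest untreated library for POU2F1, POU2F2, IKZF1 and TCF4, so results that use untreated cells are given without it wherever that moves them. Known retinoid targets followed the labels. CYP26A1, which degrades retinoic acid, had no read in any untreated library and 106 to 167 reads in every library with a retinoid alone, and TGM2 averaged 84.1 ± 8.93 normalized counts in untreated cells, 10910 ± 381 with ATRA and 9730 ± 613 with Am80. RARB, a retinoic acid receptor, was at 5.19 ± 1.92, 128 ± 11.8 and 153 ± 15.8. Of 17 myeloid genes listed to check the cell type, 16 were tested, with LYZ (lysozyme) at 6703 to 12446 normalized counts and SPI1 (the myeloid factor PU.1) at 2830 to 5245. Of 21 B cell genes, 17 were below the filter, among them CD79A at no more than 7.23 and CD79B at no more than 2.17 normalized counts.

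POU2F2 (ENSG00000028277.22, chromosome 19, 42086110 to 42196585 on the minus strand of GRCh38 in GENCODE release 29, protein coding) was at 127, 127, 122 and 78.7 normalized counts in untreated replicates 1 to 4. It was at 245, 250 and 228 with ATRA and at 196, 216 and 226 with Am80. With the inhibitors added it was at 51.7, 48.9 and 27.3 beside ATRA and at 23.0, 19.2 and 20.6 beside Am80. Every retinoid library was above every untreated library, and every library with inhibitors was below all of them.

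The group means were 114 ± 23.5 (SD, n = 4) in untreated cells, 241 ± 11.4 with ATRA and 213 ± 15.2 with Am80, and 42.6 ± 13.4 and 21.0 ± 1.91 with the inhibitors beside ATRA and Am80 (SD, n = 3 each). On the log2(normalized count + 1) scale, where 1 was added before taking logs, the difference from untreated cells was 1.10 with ATRA (standard error 0.19) and 0.92 with Am80 (0.19), or 0.94 and 0.75 without untreated replicate 4. Adding the inhibitors changed it by -2.52 beside ATRA and by -3.28 beside Am80 (standard error 0.20 each). Both combinations were then below untreated cells, by -1.42 and -2.36 (standard error 0.19 each), or -1.59 and -2.53 without untreated replicate 4. These values rest on 71 to 138 reads in untreated libraries and on only 14 to 21 reads in libraries of Am80 with inhibitors.

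**Figure D1:**
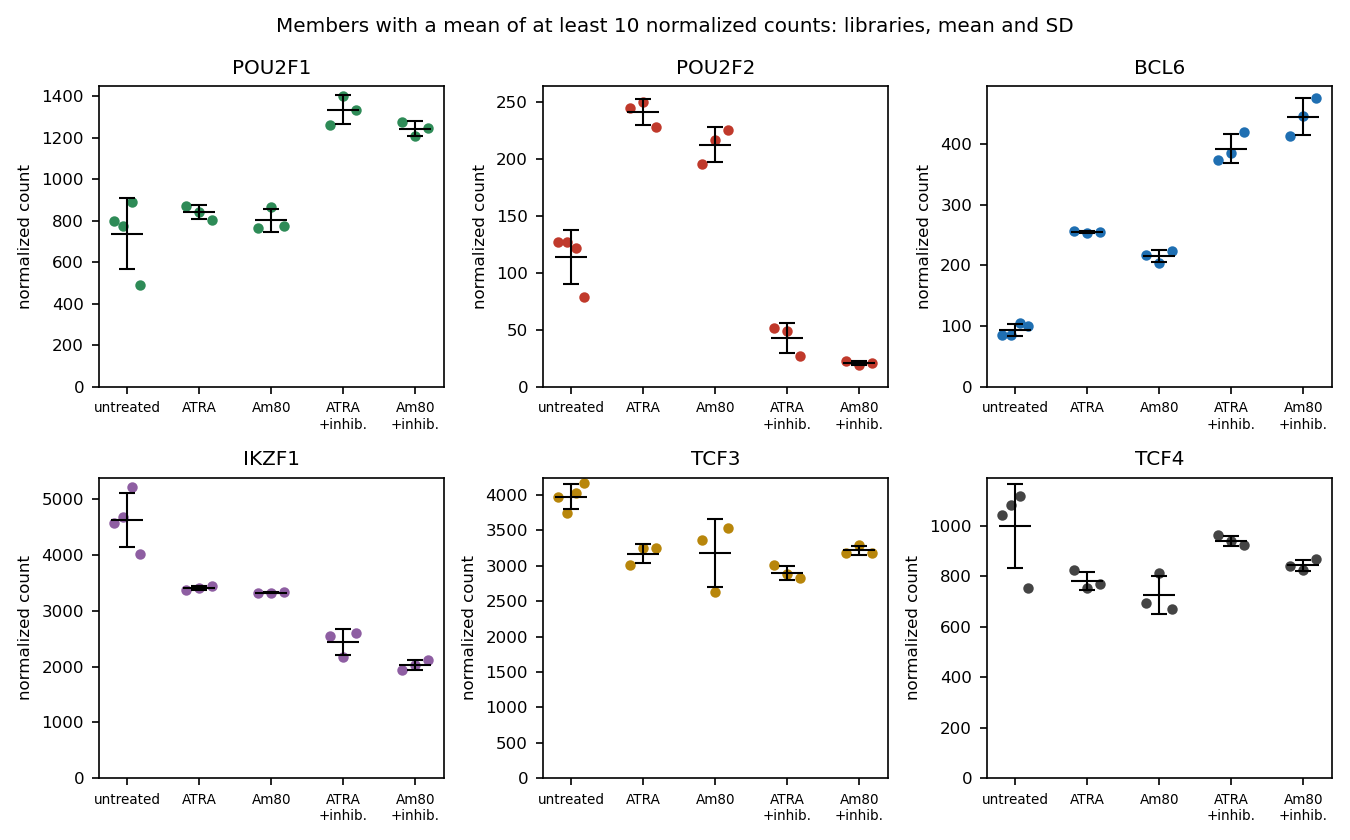
Normalized counts (linear axis from 0) of the 6 tested genes in each library, with points for libraries and black bars for the group mean and SD (4 untreated libraries, 3 in each other group). POU2F2 was highest with ATRA (mean 241) and lowest with Am80 and inhibitors (mean 21.0), BCL6 rose at both steps, IKZF1 fell at both, and untreated replicate 4, the rightmost untreated point, was low for POU2F1, POU2F2 and TCF4.

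POU2F1 (ENSG00000143190.23, chromosome 1, 167220829 to 167427345, plus strand), which binds the same octamer, did not follow POU2F2. It was at 798, 775, 892 and 492 normalized counts in untreated cells, at 872, 845 and 805 with ATRA and at 765, 866 and 775 with Am80, and the retinoid and untreated libraries overlapped. With inhibitors it was at 1264, 1404 and 1336 beside ATRA and at 1278, 1208 and 1246 beside Am80, above every other library. The log2 fold changes with retinoid were 0.22 for ATRA (95% interval -0.05 to 0.49, adjusted p = 0.237) and 0.15 for Am80 (-0.12 to 0.42, adjusted p = 0.420), and without untreated replicate 4 they were 0.04 and -0.03. The inhibitors raised it by 0.67 beside ATRA (standard error 0.14, adjusted p = 0.000496) and by 0.63 beside Am80 (0.14, adjusted p = 0.000986). All adjusted p-values here are from limma with Benjamini-Hochberg adjustment over the 14643 tested genes within each comparison, and a gene was called at an adjusted p under 0.05.

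BCL6 (ENSG00000113916.18, chromosome 3, 187721377 to 187745727, minus strand), the germinal centre repressor, rose with the retinoids and rose again with the inhibitors. It was at 85.1, 85.9, 105 and 99.7 normalized counts in untreated cells, at 257, 254 and 254 with ATRA and at 217, 205 and 223 with Am80. With inhibitors it was at 373, 385 and 419 beside ATRA and at 413, 447 and 475 beside Am80, and these did not overlap with the retinoids alone. The log2 fold change was 1.44 with ATRA (standard error 0.09, adjusted p = 9.85e-11) and 1.19 with Am80 (0.09, adjusted p = 1.97e-09). The inhibitors added 0.62 beside ATRA (0.10, adjusted p = 4.04e-05) and 1.04 beside Am80 (0.10, adjusted p = 7.00e-08), which left BCL6 4.16-fold and 4.71-fold above untreated cells.

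IKZF1 (ENSG00000185811.21, chromosome 7, 50304068 to 50405101, plus strand), encoding Ikaros, fell at both steps. It was at 4578, 4684, 5223 and 4024 normalized counts in untreated cells, at 3369, 3413 and 3451 with ATRA and at 3323, 3313 and 3343 with Am80. With inhibitors it was at 2551, 2174 and 2609 beside ATRA and at 1935, 2027 and 2114 beside Am80. The 3 levels (untreated, retinoid, retinoid with inhibitors) did not overlap for either retinoid. The log2 fold change was -0.43 with ATRA (standard error 0.08, adjusted p = 0.000193) and -0.47 with Am80 (0.08, adjusted p = 6.98e-05). The inhibitors lowered it further, with log2 fold changes of -0.49 beside ATRA (0.08, adjusted p = 6.69e-05) and -0.72 beside Am80 (0.08, adjusted p = 8.16e-07). IKZF1 thus shared the direction of POU2F2 with the inhibitors but not with the retinoids.

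The E protein gene TCF3 (ENSG00000071564.19, chromosome 19, 1609290 to 1652605, minus strand) fell with both retinoids and was not called with the inhibitors. It was at 3969, 3736, 4021 and 4166 normalized counts in untreated cells, at 3012, 3255 and 3243 with ATRA and at 3354, 2629 and 3534 with Am80, so that every retinoid library was below every untreated library. With inhibitors it was at 3008, 2875 and 2819 beside ATRA and at 3181, 3292 and 3177 beside Am80. The log2 fold change was -0.33 with ATRA (standard error 0.08, adjusted p = 0.00359) and -0.34 with Am80 (0.08, adjusted p = 0.00250). The Am80 value was -0.21 without Am80 replicate 2, the library lowest for TCF3 (adjusted p = 0.0186). The change with inhibitors was -0.13 beside ATRA (95% interval -0.30 to 0.05, adjusted p = 0.215) and 0.03 beside Am80 (-0.14 to 0.21, adjusted p = 0.793). Scaling to total reads made these -0.27 (adjusted p = 0.00874) and -0.09 (adjusted p = 0.385). Quantile normalization made them -0.28 (adjusted p = 0.0111) and -0.12 (adjusted p = 0.29), so the ATRA value was called under both.

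TCF4 (ENSG00000196628.20, chromosome 18, 55222331 to 55664787, minus strand), the other E protein gene and a factor of plasmacytoid dendritic cells, also fell with the retinoids, but with overlap. It was at 1045, 1082, 1118 and 754 normalized counts in untreated cells, at 824, 755 and 769 with ATRA and at 696, 813 and 670 with Am80. Untreated replicate 4 lay within or below the retinoid range, and the other untreated libraries lay above it. With inhibitors TCF4 was at 964, 939 and 923 beside ATRA and at 841, 826 and 869 beside Am80, above the matching retinoid libraries. The log2 fold change was -0.34 with ATRA (standard error 0.10, adjusted p = 0.0199) and -0.45 with Am80 (0.10, adjusted p = 0.00218), and -0.47 and -0.58 without untreated replicate 4. The ATRA call was lost when any of untreated replicates 1, 2 and 3 or ATRA replicates 2 and 3 was left out (adjusted p = 0.0549 to 0.0796) and with only the groups compared in the fit (0.0663). The rise with inhibitors was 0.27 beside ATRA, just within the threshold (adjusted p = 0.04995), and that call was lost without any of 11 libraries and under 5 of 10 other settings. It was 0.22 beside Am80 (95% interval -0.01 to 0.45, adjusted p = 0.115), and was called there without untreated replicate 4 (adjusted p = 0.0132), without Am80 replicate 2 (0.31, adjusted p = 0.0385) and with the replicate number as a block (adjusted p = 0.0184).

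**Figure D2:**
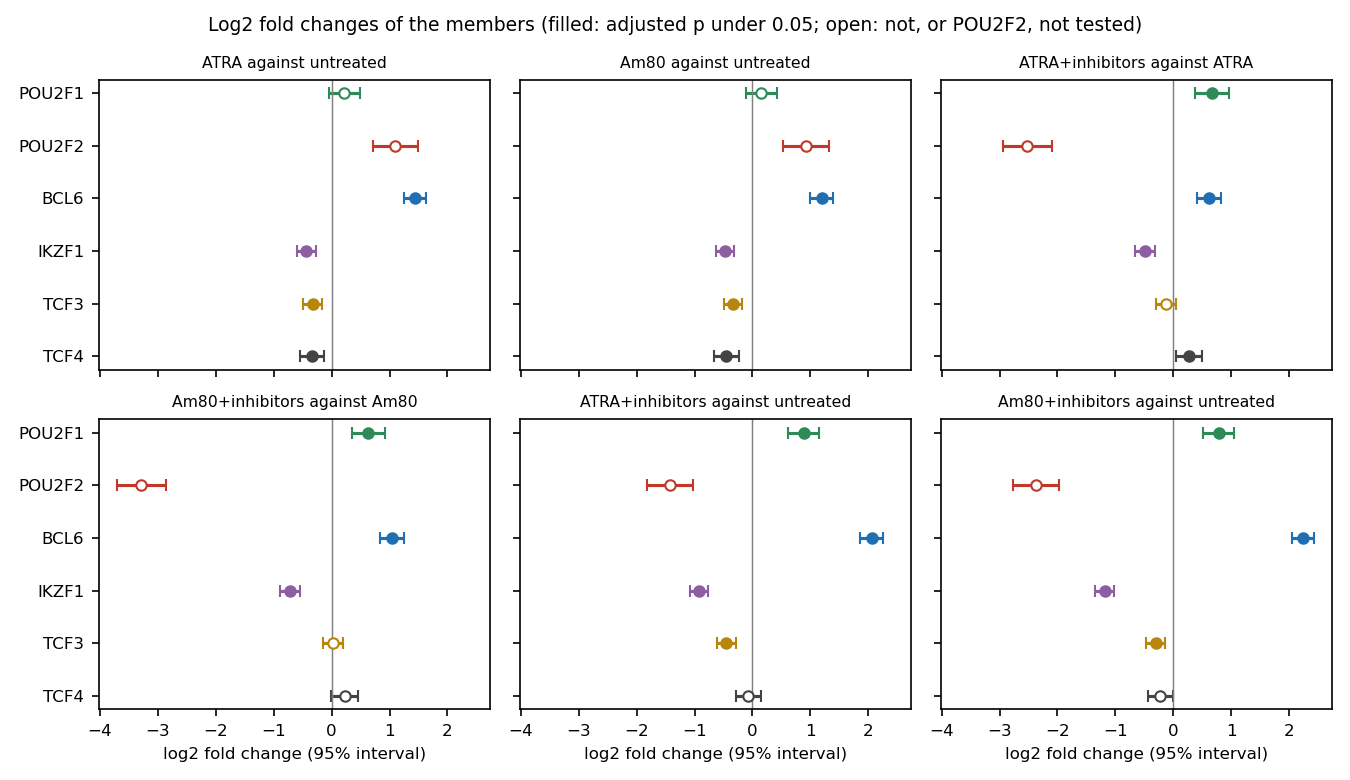
Log2 fold changes on the log2(normalized count + 1) scale of the 6 tested genes in 6 comparisons, with 95% intervals (3 libraries a group, 4 untreated). Filled points have an adjusted p under 0.05 and open points do not or, for POU2F2, were not tested. POU2F2 is the gene with a positive value for both retinoids (1.10 and 0.92) and a negative value on adding the inhibitors (-2.52 and -3.28).

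Across the members other than POU2F2, 1 of the 5 tested was called higher with ATRA (BCL6) and 3 lower (IKZF1, TCF3 and TCF4), where 12.5% of all tested genes were called higher and 12.1% lower. With Am80 the same 4 were called in the same directions, against 15.4% higher and 13.4% lower among all tested genes. As a median over the 5, the log2 fold change came to -0.33 (ATRA) and -0.34 (Am80), beside -0.02 and -0.01 for all tested genes. Adding inhibitors to ATRA raised 3 of the 5 (POU2F1, BCL6 and TCF4) and lowered IKZF1, against 24.9% higher and 24.4% lower overall. Adding them to Am80 raised POU2F1 and BCL6 and lowered IKZF1, against 19.9% and 19.5%. The medians of the 5 were 0.27 and 0.22, beside -0.02 and -0.01.

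Against untreated cells, ATRA with inhibitors was called higher for POU2F1 and BCL6 and lower for IKZF1 and TCF3, where 30.2% of all tested genes were higher and 30.0% lower. Am80 with inhibitors gave the same 4 calls, against 28.0% and 26.6%. TCF4 was not called in either (-0.07, adjusted p = 0.580, and -0.23, adjusted p = 0.0701), but was lower in both without untreated replicate 4 (-0.20, adjusted p = 0.0195, and -0.36, adjusted p = 0.000192) and with the replicate number as a block (adjusted p = 0.0260 and 0.000373). The Am80 combination was also called lower for TCF4 with quantile normalization (-0.31, adjusted p = 0.0265), scaling to total reads (-0.41, adjusted p = 0.00381) and edgeR (-0.26, adjusted p = 0.0382). With so many genes called in each direction, single calls of members are not unusual. Scaling to total reads instead of the deposited size factors shifted the median of all tested genes by -0.14 beside ATRA and -0.12 beside Am80 on adding the inhibitors, and cut the share of calls that were higher from 50.5% to 29.8% and from 50.5% to 29.3%. The share also went from 50.1% to 35.0% and from 51.3% to 30.4% for the combinations against untreated cells, and from 53.5% to 39.0% for Am80 alone.

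None of the 5 other tested members was called higher with a retinoid and then lower on adding the inhibitors, in the comparisons with ATRA or with Am80. The 4 members under the filter were not in this fit. Of all tested genes, 549 (3.75%) had that pattern with ATRA and 563 (3.84%) with Am80. POU2F2 was among both, which is how it was chosen. The rise and the fall share the libraries with retinoid alone, so a library that reads high by chance adds to both, and the overlap was not tested. At these shares a list of 5 tested genes would hold few or none in any case, so the count of 0 does not set the members apart from other genes. At an adjusted p under 0.01 with an absolute log2 fold change of at least 1, the pattern was held by 66 genes with ATRA and 69 with Am80, and POU2F2 was not among both, since its log2 fold change with Am80 was 0.92.

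**Figure D3:**
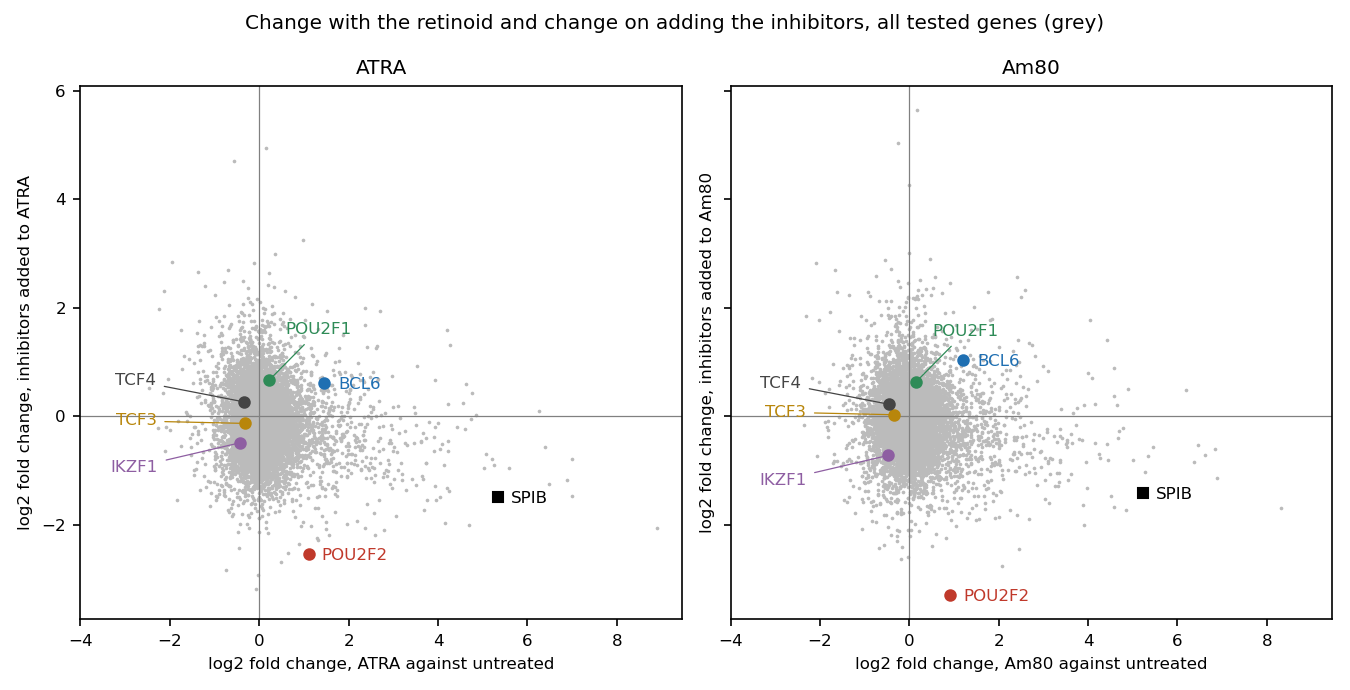
Log2 fold change with the retinoid (horizontal) and on adding the inhibitors to it (vertical) for 14643 tested genes (grey), with ATRA on the left and Am80 on the right. Coloured points are the 6 tested members, and the black square is SPIB. POU2F2 (1.10 and -2.52 with ATRA, 0.92 and -3.28 with Am80) lies to the right of and below 0, BCL6 to the right of and above it, IKZF1 to the left of and below it. The 2 axes share the retinoid libraries.

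The difference between the retinoids was not itself used to choose POU2F2, so all 6 tested genes are given there. The rise and falls that were used share their libraries with these comparisons and with the interaction below. The p-values of POU2F2 are therefore not free of that choice. No member was called for Am80 against ATRA, in the reported fit or under any alternative, where 35 of 14643 genes (0.239%) were called. Leaving out untreated replicate 4 raised the count to 458, leaving out Am80 replicate 3 to 452 and ATRA replicate 3 to 97, while each of the remaining libraries left out gave 0 to 35. The count was 402 with the replicate number as a block, 344 with DESeq2 and 88 with edgeR. POU2F2 differed by -0.18 (95% interval -0.60 to 0.24, adjusted p = 0.757), and BCL6 by -0.25 (-0.45 to -0.04, adjusted p = 0.263), with no overlap between the libraries of either gene. The libraries of IKZF1 did not overlap either, at a difference of only -0.04 (adjusted p = 0.895), so a lack of overlap says little here. With inhibitors present no gene was called (0%), although 2656 had an unadjusted p under 0.05. DESeq2 called 114 genes there and edgeR 0, and limma called 646 without untreated replicate 4, 243 without Am80 replicate 2, 690 with the replicate number as a block and 0 to 7 without any other library. POU2F2 was lower with Am80 and inhibitors than with ATRA and inhibitors in every library, by -0.94 (95% interval -1.36 to -0.52, adjusted p = 0.119). It passed the threshold without untreated replicate 4 (adjusted p = 0.0230), without Am80 replicate 2 (0.0342) or without ATRA with inhibitors replicate 3, which had the lowest POU2F2 of its group (-1.23, 0.0239), and its adjusted p ran from 0.0154 to 0.415 over the settings tried. IKZF1 differed in the same direction by -0.27 (-0.44 to -0.10, adjusted p = 0.154, or 0.0347 without untreated replicate 4).

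Whether the inhibitors acted differently beside the 2 retinoids was tested as an interaction. No gene was called (0%), with 2211 at an unadjusted p under 0.05, 27 genes called by DESeq2, 0 by edgeR and 41 by limma without Am80 replicate 3. The fall of POU2F2 was larger beside Am80 by -0.76 (95% interval -1.36 to -0.16, adjusted p = 0.243). The rise of BCL6 was larger beside Am80 by 0.43 (0.13 to 0.72, adjusted p = 0.226). POU2F1, IKZF1, TCF3 and TCF4 had values of -0.03, -0.23, 0.16 and -0.04 (adjusted p = 0.952, 0.352, 0.514 and 0.913). These intervals do not show that ATRA and Am80 act alike on any of the 6 genes.

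Levels of different genes were compared as normalized counts per kb of exon, with the exon lengths of GENCODE release 29. These lengths join all annotated exons of a gene (27828 bases for TCF4 and 9072 for POU2F2). A gene with many annotated exons can therefore read low, and the order of genes depends on the annotation. In untreated cells TCF3 was highest at 653 ± 29.4 per kb, followed by IKZF1 at 423 ± 44.9, POU2F1 at 46.0 ± 10.7, TCF4 at 35.9 ± 5.98, BCL6 at 15.8 ± 1.66 and POU2F2 at 12.5 ± 2.59. Among these neighbours only the ranges of POU2F1 and TCF4 overlapped. With ATRA, BCL6 (43.0 ± 0.343 per kb) moved above TCF4 (28.1 ± 1.32), and POU2F2 (26.6 ± 1.26) reached the range of TCF4. With Am80 and inhibitors POU2F2 was at 2.31 ± 0.211 per kb, below the 5 other tested members, while BCL6 (74.9 ± 5.21) overlapped with POU2F1 (77.4 ± 2.18).

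The 4 members under the filter were close to the detection limit in every group. POU2AF1, the partner of POU2F2, had 15 reads in all 16 libraries together: 11 in Am80 replicate 2, 1 in Am80 replicate 1 and 3 in untreated replicate 2. The other 13 libraries had 0, and a count of 0 allows up to 3 reads, or 2.16 to 4.18 normalized counts. BCL11A had 2 to 9 reads in every library and 1.86 to 9.78 normalized counts. It had 3.69 to 8.86 normalized counts in untreated cells, 2.16 to 3.45 with ATRA and 1.86 to 2.17 with Am80, then 4.88 to 9.78 and 3.29 to 6.44 with the inhibitors. Tested without the filter, it was not called with ATRA (-0.85, adjusted p = 0.358), with Am80 (-1.18, adjusted p = 0.130) or on adding the inhibitors (1.18, adjusted p = 0.113, and 0.85, adjusted p = 0.341). IKZF2 had 0 to 3 reads and IKZF3 0 to 8 reads a library, and no change was detectable at this depth. The limit of 3 reads covers counting error only, since reads are not separate molecules.

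The genes with the pattern most like POU2F2 were found by the root mean square difference between their log2 fold changes and those of POU2F2 in the 4 treated groups against untreated cells. The nearest was WNT10B, which encodes a Wnt ligand, at 0.511, followed by the pseudogene CBX3P2 at 0.579, RCOR2, a corepressor of the CoREST family that binds LSD1, at 0.585, the cilia gene RIBC2 at 0.601 and the antisense RNA PIK3CD-AS1 at 0.667. WNT10B was at 125 ± 24.5 normalized counts in untreated cells, 238 ± 11.4 with ATRA, 219 ± 30.6 with Am80, and 59.1 ± 15.97 and 46.5 ± 11.8 with inhibitors. RCOR2 was at 35.2 ± 8.60, 49.0 ± 6.60, 49.8 ± 11.1, 7.08 ± 2.45 and 8.98 ± 3.14 in the same order. Of the 5, WNT10B alone was called higher with both retinoids (0.94, adjusted p = 0.000573, and 0.81, adjusted p = 0.00191), and the other 4 were not called with either. All 5 were called lower on adding the inhibitors to either retinoid, as were 24.4% (ATRA) and 19.5% (Am80) of all tested genes. WNT10B was at -2.02 and -2.23 and RCOR2 at -2.67 and -2.38. Because the 5 were picked for likeness to POU2F2 in these same libraries, their calls depend on that choice and are only a description. PIK3CD-AS1 lies antisense to another gene and CBX3P2 is a copy of one, so their reads are less certain.

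Among the members, IKZF1 was nearest to POU2F2 by the same measure (1.22), followed by TCF3 (1.48), TCF4 (1.61), POU2F1 (2.04) and BCL6 (2.89). BCL6 was farther from POU2F2 than 98.6% of the other tested genes, and POU2F1, the paralog of POU2F2, farther than 91.9%. TCF4 was farther than 55.7%, TCF3 than 35.5% and IKZF1 than only 6.75%. The members were thus spread over the range of the other tested genes. These are distances over 4 group values that share the untreated libraries.

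**Figure D4:**
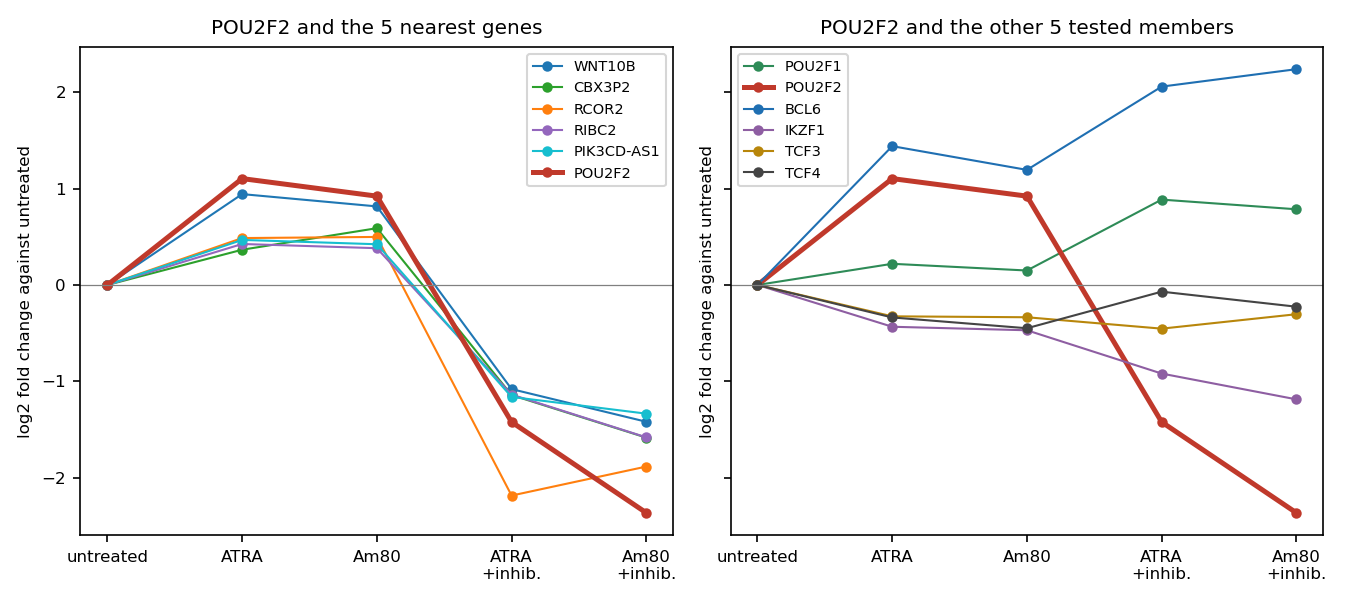
Log2 fold change against untreated cells (vertical) in the 5 groups, untreated at 0. The left panel shows POU2F2 with the 5 nearest genes (root mean square difference 0.511 to 0.667) and the right panel POU2F2 with the other 5 tested members (1.22 to 2.89). On the right, POU2F2 crosses from above to below 0 with the inhibitors, BCL6 and POU2F1 end above 0, and IKZF1, TCF3 and TCF4 stay below it.

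Paralogs and partners of the members (21 genes: POU2F3, POU2AF2, BCL6B, the other Ikaros genes, ID and E proteins and corepressors) were read as a group, of which 15 were tested. With ATRA 2 were called higher and 5 lower, and with Am80 1 higher and 4 lower, with medians of -0.10 and -0.01, where the shares of all tested genes were 12.5% higher and 12.1% lower with ATRA and 15.4% and 13.4% with Am80. ID1, an inhibitor of E proteins, rose by 1.99 with ATRA and 1.86 with Am80 (adjusted p = 3.53e-10 and 1.06e-09), from 540 ± 138 normalized counts in untreated cells to 2109 ± 149 and 1944 ± 365. ID3, another inhibitor of E proteins, fell, with log2 fold changes of -2.25 and -1.78 (adjusted p = 3.92e-07 and 8.82e-06), as did ID2 at -0.91 and -0.57 and TAL1 at -0.61 and -0.77. The ID genes thus did not move together, while TCF3 and TCF4 fell.

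On adding the inhibitors, 4 of the 15 rose and 6 fell beside ATRA, and 5 rose and 5 fell beside Am80, with medians of -0.11 and -0.12, against shares of 24.9% and 24.4% (ATRA) and 19.9% and 19.5% (Am80) over all tested genes. ID3 rose by 1.99 and 1.93 (adjusted p = 4.40e-06 and 7.41e-06), the reverse of its change with retinoid. BCOR, a corepressor that binds BCL6, fell, with log2 fold changes of -1.06 and -1.28 (adjusted p = 1.42e-07 and 1.07e-08), with 3205 ± 34.2 and 1553 ± 240 normalized counts before and after them in ATRA, and 3019 ± 142 and 1246 ± 75.8 in Am80, while BCL6 itself rose. TAL1, a partner of E proteins, fell (-0.61 and -0.84). The Ikaros relatives IKZF5 (0.75 and 0.55) and IKZF4 (0.51 and 0.51) rose, whereas IKZF1 fell.

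Of 30 other lymphoid transcription factors, 19 were tested. With ATRA 9 were called higher and 7 lower, and with Am80 7 and 7, with medians of 0.17 and 0.16 beside -0.02 and -0.01 for all tested genes, of which 12.5% and 12.1% were called with ATRA and 15.4% and 13.4% with Am80. SPIB, an ETS factor of B cells and plasmacytoid dendritic cells, rose most: it was at 4.18, 7.39, 4.98 and 3.32 normalized counts in untreated cells, at 237, 236 and 230 with ATRA and at 233, 194 and 229 with Am80. It then fell to 93.7, 69.6 and 88.7 with inhibitors beside ATRA and to 83.3, 81.1 and 79.8 beside Am80. Its log2 fold changes, which depend on the pseudocount at so low an untreated level, were 5.35 and 5.24 with retinoid (adjusted p = 1.70e-15 and 2.44e-15) and -1.48 and -1.41 on adding the inhibitors (adjusted p = 3.26e-06 and 7.07e-06). SPIB thus had the rise and fall with both retinoids, as POU2F2 did, but stayed above untreated cells with the inhibitors, by 3.86 and 3.83, where POU2F2 ended below them.

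No other gene of that list had the pattern with both retinoids, and SOX4 and ERG had it with Am80 only. EBF1, an early B cell factor, rose with the retinoids (1.14 and 1.003, adjusted p = 2.16e-08 and 1.40e-07) and was not called on adding the inhibitors (0.14 and 0.17). FOXO1 rose by 0.56 and 0.60. ZEB1 (-0.79 and -0.80), HHEX (-0.83 and -0.65) and MYB (-0.59 and -0.60) fell. On adding the inhibitors 4 rose and 5 fell beside ATRA, and 4 rose and 8 fell beside Am80, with medians of -0.02 and -0.08, where 24.9% and 24.4% of all tested genes were called beside ATRA and 19.9% and 19.5% beside Am80. HHEX (1.07 and 0.88), XBP1 (0.84 and 0.89), a factor of plasma cells, and NFIL3 (0.76 and 0.82) rose, and MYB (-0.68 and -0.95) and RUNX3 (-0.70 and -0.54) fell with SPIB.

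**Figure D5:**
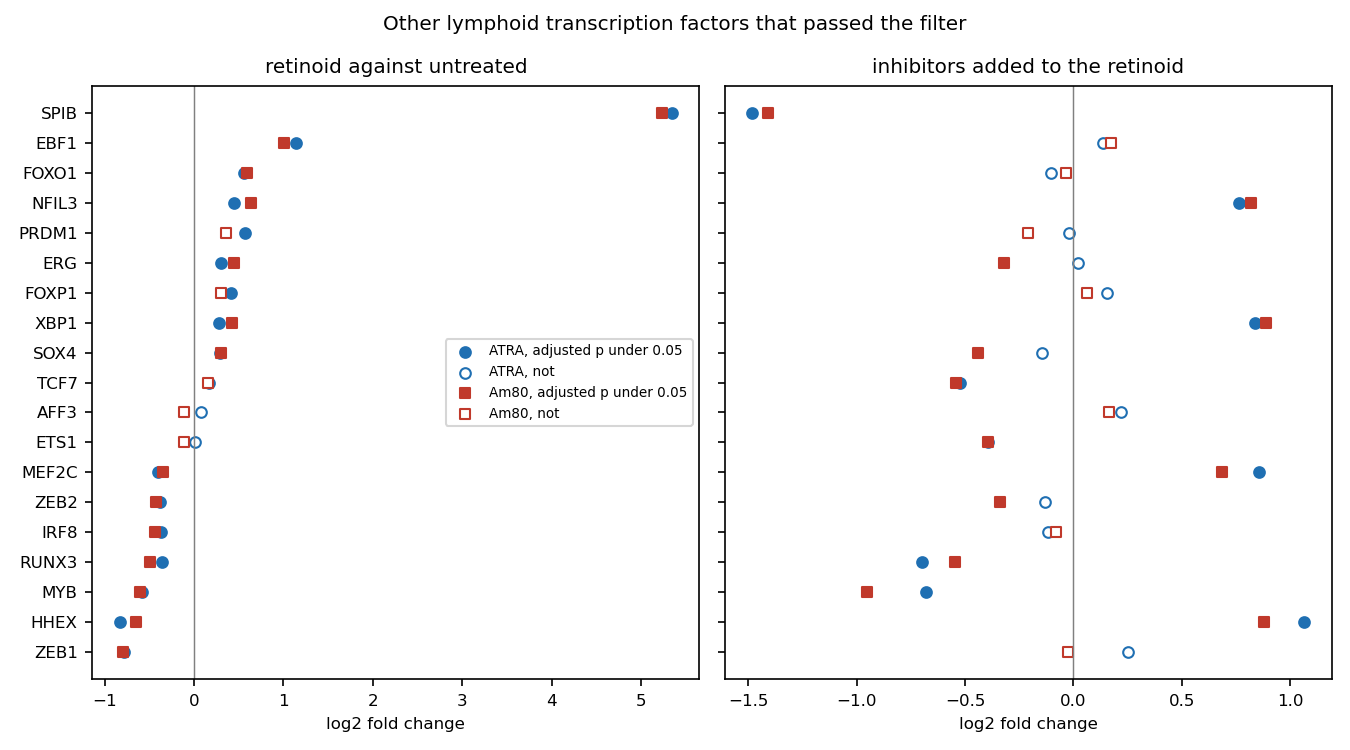
Log2 fold changes of the 19 tested genes of the list, ordered by their mean change with retinoid, with the retinoids against untreated cells on the left and the inhibitors added on the right (the 2 axes differ in range). Circles are ATRA and squares Am80, filled at an adjusted p under 0.05. SPIB is highest on the left (5.35 and 5.24) and lowest on the right (-1.48 and -1.41).

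Lymphocyte genes stayed low. Of 21 B cell genes 4 were tested. BTK, a kinase also used by myeloid cells, fell with the retinoids (-0.18 and -0.21) and with the inhibitors (-0.23 and -0.30). Of 13 T and NK cell genes 2 were tested, and CD4, which monocytes also express, was the one called, lower with the inhibitors (-0.23 and -0.18). Of 16 tested myeloid genes, 2 were called higher and 3 lower with ATRA (12.5% and 12.1% of all tested genes), and 2 and 2 with Am80 (15.4% and 13.4%). With the retinoids, ITGAM (CD11b) rose (0.55 and 0.70), and LYZ (-0.67 and -0.48) and FCGR1A (-0.50 and -0.41) fell. The inhibitors lowered 8 of the 16 beside ATRA (24.4% of all tested genes) and 5 beside Am80 (19.5%), among them CSF1R (-0.82 and -0.92), CEBPA (-0.81 and -0.67) and SPI1 (-0.57 and -0.41), and raised LYZ (0.70 and 0.52). CSF3R had the rise and fall of POU2F2 with ATRA alone and CSF1R with Am80 alone, no tested B cell, T or NK cell gene had it, and of the retinoid targets CYP26A1 and TGM2 had it with both.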

How the data were processed

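RNA-seq of 16 OCI-AML3 libraries was analysed from 1 deposited table. Per the labels, the authors' processing used FastQC, cutadapt, STAR, featureCounts and DESeq2, with versions, genome build, annotation and strand setting not given in the sources used here. The deposited signal values are gene counts divided by DESeq2 size factors. Of them, 100.0% were whole multiples of the value of 1 read in their library, to within 1e-06 of a read. Read numbers could therefore be recovered. The labels and the study's methods name different extraction and library kits. All columns of the table were used, and every row carried a gene identifier. Exon overlaps between members and other annotated genes in GENCODE release 29 covered at most 5.36% of a member's exons, with at most 7.76 normalized counts in the overlapping gene.

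Genes averaging 10 normalized counts or more across 16 libraries were tested with limma 3.58.1 (R 4.3.3, trend on, robust off) on log2(normalized count + 1), which understates the change of low genes, with 1 coefficient per group, over 9 comparisons, and Benjamini-Hochberg adjustment within each. Between 18 pairs of replicates, the chi-square per degree of freedom was 2.55 to 22.7, so none was a repeated deposit. The test was tried on simulated counts with known changes. Alternatives were pseudocounts of 0.5 and 5, no filter, a minimum mean of 50, quantile and total-read scaling, edgeR 4.0.16 and DESeq2 1.42.0 on the recovered reads, only the groups compared, the replicate number as a block, each library left out, and stricter limits. Members and gene lists were chosen with earlier results of these data known. The genes named are the 10 members, the 5 genes nearest to POU2F2, up to 3 genes with the largest mean rise and fall among those of each list called the same way with both retinoids, 3 retinoid targets, and list genes with the rise and fall. Values of some genes that this rule names are not reported here. Figures used matplotlib 3.10.9.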

Additional observations from a re-analysis of the deposited data

Results flagged for a closer look

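The 4 untreated libraries were tested for an outlying sample in each of the 10 members, and chance marks about 1 in 20 such groups. Untreated replicate 4 was the lowest for POU2F2, at 78.7 normalized counts against 122 to 127 in the other untreated libraries. Untreated replicate 2 was the only untreated library with reads of POU2AF1, at 2.77 normalized counts, which are 3 reads. With the other 3 libraries at 0 reads, any read in the fourth makes it an outlying sample, so this value says nothing about POU2AF1.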

How the results depend on the processing

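Of 48 tests of a member in a comparison, 35 kept their direction and their side of the threshold under every alternative, and no member other than POU2F2 had the rise and fall under any setting that could be tried. Asking for an absolute log2 fold change of at least log2(1.5) cut the members called from 4 to 1 with ATRA, from 4 to 1 with Am80, and from 4 to 2 on adding inhibitors to ATRA. Asking for an adjusted p under 0.01 and an absolute log2 fold change of at least 1 left 1 with ATRA, 1 with Am80, 0 and 1 on adding the inhibitors to ATRA and Am80, and 1 and 2 for the combinations of ATRA and Am80 against untreated cells. Between the combinations 0 members were called in the reported fit and 2 (POU2F2 and IKZF1) with only the groups compared, and leaving out single libraries gave 0 to 2.

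Directions turned only for differences that were not called. TCF3 on adding the inhibitors to Am80 was at -0.12 with quantile normalization, -0.093 with scaling to total reads and -0.0021 with edgeR, and at -0.10 to 0.12 with single libraries left out. TCF3 for Am80 against ATRA was at 0.011 with edgeR and at -0.093 to 0.12 with libraries left out. With libraries left out, POU2F1 for Am80 against untreated was at -0.034 to 0.25, and the interactions of POU2F1 and TCF4 were at -0.069 to 0.026 and -0.10 to 0.040. The fall of POU2F2 on adding the inhibitors to Am80 was -3.07 with a pseudocount of 5. The causes were not tested.

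The replicate numbers did not pair the samples: deviations of 30 same-numbered pairs correlated at -0.11 to 0.19, 4 of them over 0.1, and 5 of 16 libraries correlated best with their own number. The fit with the replicate number as a block, in which untreated replicate 4 forms a block alone, gave 2 members called between the combinations and -0.034 for POU2F1 with Am80, and called TCF4 in 3 more comparisons. Genes with few reads, POU2AF1, BCL11A, IKZF2 and IKZF3, are limited by depth.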
